A study of Mus musculus with 8 samples.

Results

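Ubiquitin-conjugating enzymes, called E2 enzymes, are the family described here, taken as the protein-coding mouse genes whose symbols begin with Ube2. The deposited table held 37 of them among 55335 gene identifiers, on 16 chromosomes. All 37 are called E2 genes here. Ube2cbp is among them by its symbol alone, as it encodes a protein that binds the Ube2c product, not an E2 enzyme. The cells were RAW264.7, an established mouse line of macrophage type, and they spent 3 days on the Trio-Active bone scaffold (TABS) or on HA/Mg, a hydroxyapatite that carries magnesium ions. Each material had 4 RNA-seq libraries, numbered 5 to 8 in both groups, and the labels name no genetic change or other treatment. The components of TABS are not described in the labels, and no cells grown without a scaffold were analysed here, so every value compares TABS with HA/Mg. The groups follow the sample titles. The library names use H for TABS and L for HA/Mg, and were these swapped, each direction given here would turn. Whether a group's libraries were grown as separate cultures is not said in the labels, so a p-value here reflects the spread of these libraries alone, and that spread may be technical.

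Attachment of ubiquitin to a protein runs through a relay. An activating enzyme (E1) charges ubiquitin, an E2 enzyme carries it on a catalytic cysteine, and a ligase (E3) directs its transfer to the substrate. With ligases of the RING type the E2 largely sets which kind of ubiquitin chain is built. Some E2 enzymes carry ubiquitin-like proteins in place of ubiquitin, namely SUMO, NEDD8 or ISG15. In macrophages the system acts in inflammatory signalling and interferon responses as well as in protein turnover, and in dividing cells it drives the exit from mitosis.

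The values are FPKM, fragments normalised for transcript length and sequencing depth. Estimated depth was 19600000 to 23700000 fragments per library, and 9908 to 10280 genes per library reached 1 FPKM. All 10 macrophage markers examined were tested. With TABS 3 of them rose (Csf1r, Cd14 and Cd68) and none fell, where 5.07% of all 10161 genes tested rose and 13.1% fell. The summed level of the 10 markers was 2768 to 3046 FPKM with TABS and 2312 to 2717 FPKM with HA/Mg. Of 16 markers of other cell types 15 stayed below 1 FPKM in every library, and their summed level was 1.67 to 2.16 FPKM with TABS and 1.75 to 2.27 FPKM with HA/Mg. The part of the macrophage markers in the results below was not tested. In bulk RNA a smaller share of cells of a kind and less RNA per cell cannot be told apart.

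Of the 37 E2 genes, 30 reached 1 FPKM in at least 4 libraries and were tested. None of the 30 was called higher with TABS by limma on log2(FPKM + 1), and 3 were called lower at an adjusted p under 0.05, namely Ube2g1, Ube2e1 and Ube2v2. That is 3 of 30 tested E2 genes, against 18.1% of the 10161 genes tested (5.07% higher and 13.1% lower). Of all genes called 28% were higher with TABS, a share that was 43.4% with median-of-ratios scaling, 40% with quantile normalization and 13.9% after rescaling to equal sums. At an unadjusted p under 0.05 there were 7 E2 genes (Ube2g1, Ube2e1, Ube2v2, Ube2n and Ube2w lower, Ube2q1 and Ube2m higher), against 3703 of the 10161 genes tested. The groups did not overlap for 5 E2 genes (16.7%), of which 1 was higher with TABS and 4 were lower, where the shares over all genes tested were 23.1%, 8.05% and 15%. The median log2 change, TABS minus HA/Mg, was -0.065 over the 30 E2 genes and -0.036 over all genes tested. For 28 of the 30 the 95% interval of the log2 change lay within 0.585 of 0, and the exceptions were Ube2l6 and Ube2q2. On this scale 0.585 is a 1.5-fold difference in FPKM + 1, which is a larger fold in FPKM for low genes. The interval of Ube2v2, the lowest tested (-0.56 to -0.12), thus does not hold its FPKM within 1.5-fold.

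**Figure D1:**
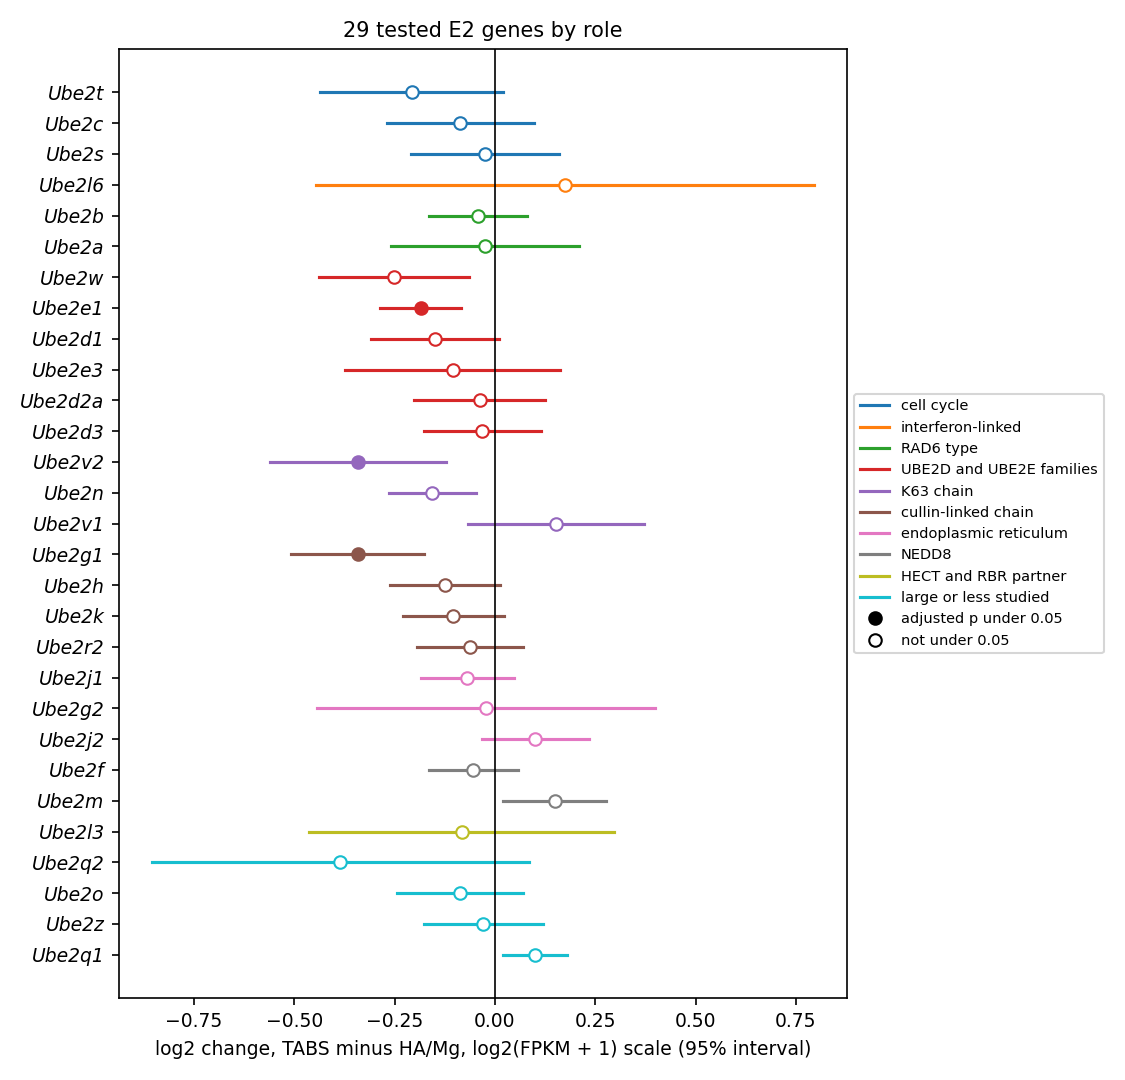
Log2 change (x axis, TABS minus HA/Mg, of log2(FPKM + 1)) of 29 of the 30 tested E2 genes (y axis), coloured by role, with limma's 95% interval as a line. Filled points are the 3 genes with an adjusted p under 0.05, Ube2e1, Ube2v2 and Ube2g1, all left of 0, and the widest intervals belong to Ube2l6 and Ube2q2.

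The E2 genes of the cell cycle and of the interferon response were set against the rest first. None of these 4 passed, and the 3 calls fell among the other 26 tested E2 genes, whose median log2 change was -0.065. Ube2c (ENSMUSG00000001403, GRCm38 chromosome 2 from 164769898 to 164778822, plus strand) encodes the E2 that starts ubiquitin chains on substrates of the anaphase-promoting complex (APC/C), the ligase that ends mitosis. Ube2s (ENSMUSG00000060860, chromosome 7 from 4794546 to 4812590, minus strand) encodes the E2 that extends those chains. Ube2t (ENSMUSG00000026429, chromosome 1 from 134962565 to 134974162, plus strand) encodes the E2 of the Fanconi anaemia pathway, which repairs crosslinked DNA. Ube2l6 (ENSMUSG00000027078, chromosome 2 from 84798828 to 84810335, plus strand) encodes the E2 that carries ISG15, a small modifier whose gene responds to interferon.

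Stretches upstream of the starts of 3 of these genes are shown because promoters of cell-cycle and of interferon-induced genes are known for different elements. They are RefSeq sequences of GRCm38.p6, written 5′ to 3′ on the gene's own strand. Capitals mark the CCAAT box (letters CCAAT, searched on both strands and so also written ATTGG), which is common in cell-cycle promoters. The stretches are chr2:164769679-164769897 for Ube2c, chr1:134962315-134962564 for Ube2t and chr2:84798578-84798827 for Ube2l6.
Ube2c: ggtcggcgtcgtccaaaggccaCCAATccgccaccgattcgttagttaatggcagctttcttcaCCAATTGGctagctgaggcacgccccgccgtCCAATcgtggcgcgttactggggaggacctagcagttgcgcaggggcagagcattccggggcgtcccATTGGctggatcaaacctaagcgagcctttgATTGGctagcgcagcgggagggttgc
Ube2t: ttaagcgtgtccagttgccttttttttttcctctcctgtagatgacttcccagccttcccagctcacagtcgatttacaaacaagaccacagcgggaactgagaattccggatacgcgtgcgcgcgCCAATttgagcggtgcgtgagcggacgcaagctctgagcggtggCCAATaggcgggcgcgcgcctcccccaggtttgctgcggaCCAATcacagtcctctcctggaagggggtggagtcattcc
Ube2l6: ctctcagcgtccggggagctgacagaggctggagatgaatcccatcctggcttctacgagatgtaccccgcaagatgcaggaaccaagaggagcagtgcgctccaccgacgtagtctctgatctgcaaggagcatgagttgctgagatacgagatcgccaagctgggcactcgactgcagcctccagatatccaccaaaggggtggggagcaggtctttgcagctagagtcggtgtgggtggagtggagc
The CCAAT letters stand 6 times in the Ube2c stretch, with 1 pair overlapping on opposite strands, 3 times in the Ube2t stretch and not in the Ube2l6 stretch. They were not found in the window of Ube2s, the remaining cell-cycle gene. They occur in 37.4% of 32851 promoter windows of 300 bases, and in 9 of 41 windows of E2 genes, among them that of Ube2f. A second element of cell-cycle promoters, the CHR (letters TTTGAA, both strands), was found in the Ube2c window on the minus strand, 29 bases before the RefSeq start, and not in the windows of Ube2s, Ube2t or Ube2l6. The CHR letters, in capitals, lie just inside the first exon that GENCODE annotates, and the stretch shown, chr2:164769891-164769914 on the plus strand, begins before that exon and overlaps the end of the upstream stretch above.
Ube2c site: gggttgcaaTTCAAAcgcgggcgg
The CHR letters occur in 17.9% of all windows and in 4 of the 41 E2 windows, among them that of Ube2f. The core of the interferon-stimulated response element (GAAA, any 2 bases, then GAAA again, both strands) occurs in 3.44% of windows and was not found in the Ube2l6 window. These matches describe letters in the windows only. The Ube2s window lies wholly in an annotated exon and is not printed.

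In TABS replicates 5 to 8 Ube2c stood at 40.0, 38.8, 48.7 and 43.6 FPKM, and in HA/Mg replicates 5 to 8 at 50.2, 46.9, 41.9 and 42.7 FPKM. The groups overlapped, with TABS replicate 7 above 3 of the HA/Mg libraries. The log2 change was -0.09 ± 0.08 (standard error, 95% interval -0.27 to 0.10, limma adjusted p = 0.472). Ube2s stood at 28.7, 31.0, 31.4 and 31.1 FPKM in the TABS libraries and at 35.0, 34.3, 27.5 and 28.1 FPKM in the HA/Mg libraries, so the HA/Mg libraries lay on both sides of all TABS libraries. Its log2 change was -0.03 ± 0.08 (interval -0.21 to 0.16, adjusted p = 0.851). Ube2s shares exon sequence with Rpl28, a ribosomal protein gene on the opposite strand, at 212 to 299 FPKM. The use of strand in counting is not given, so fragments of the 2 genes cannot be told apart where they overlap.

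Ube2t was the lowest of the 3, at 4.47, 4.11, 5.65 and 4.77 FPKM with TABS and 6.38, 6.08, 5.28 and 4.82 FPKM with HA/Mg. TABS replicate 7 lay above HA/Mg replicates 7 and 8. The log2 change was -0.21 ± 0.10 (interval -0.44 to 0.02, adjusted p = 0.169). In all 3 genes HA/Mg replicates 5 and 6 were the highest libraries of their group, and TABS replicate 7 was the highest of its group. None of the 3 was called under any alternative setting run.

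**Figure D2:**
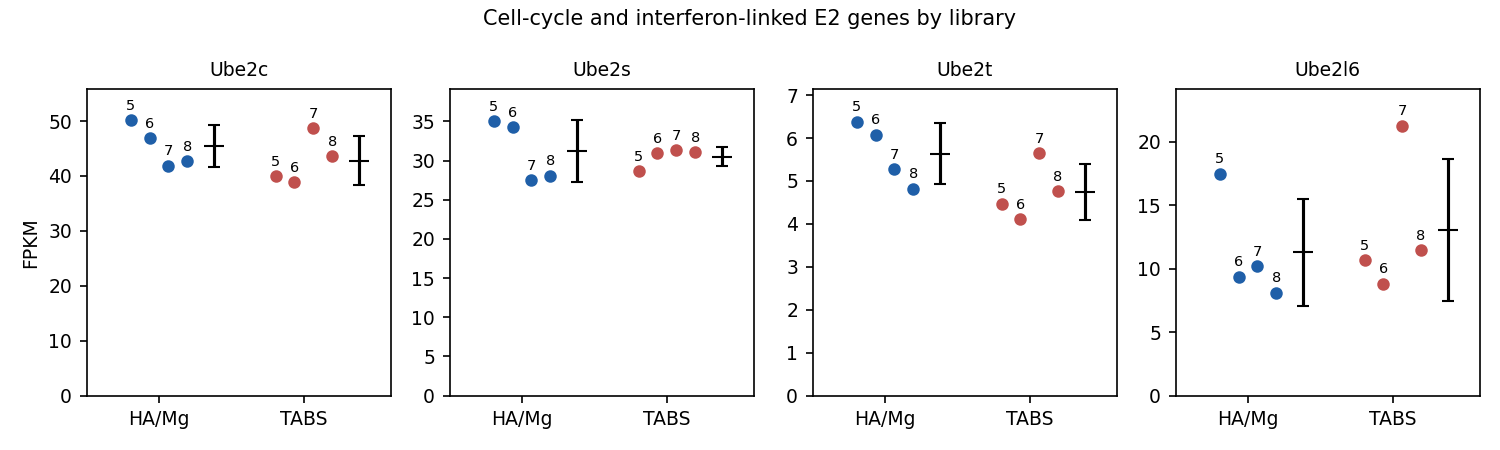
FPKM (y axis, from 0) of Ube2c, Ube2s, Ube2t and Ube2l6 in each library, numbered by replicate, with HA/Mg in blue and TABS in red, and the mean ± SD of each group in black (n = 4). The groups overlap in all 4 panels, HA/Mg replicates 5 and 6 stand above HA/Mg replicates 7 and 8 for Ube2c, Ube2s and Ube2t, and Ube2l6 is highest in TABS replicate 7.

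Genes that work with these E2 enzymes are given beside them. For this and every later list, the shares to compare are those over all genes tested, 5.07% called higher with TABS and 13.1% lower. Of 17 tested genes of the APC/C subunits, activators and inhibitor 1 fell with TABS, Fbxo5, which encodes the inhibitor EMI1 (6.79 ± 1.013 against 10.9 ± 0.934 FPKM, mean ± SD, n = 4 each, adjusted p = 0.00859). The call held with the length and GC trends taken out, as described below (adjusted p = 0.0225). The other 16 did not pass, and the median log2 change of the list was -0.063. Of 13 tested APC/C substrates of mitosis 10 fell and 3 did not pass (median log2 change -0.28). The smallest p-values were those of Tpx2, a spindle assembly factor (30.2 ± 2.02 against 41.0 ± 3.23 FPKM, adjusted p = 0.0094), Bub1, a checkpoint kinase (13.1 ± 0.413 against 18.3 ± 1.97 FPKM, adjusted p = 0.00986), and Ccna2, or cyclin A2 (28.3 ± 1.52 against 35.6 ± 2.97 FPKM, adjusted p = 0.015). With those trends taken out Tpx2 and Bub1 passed (adjusted p = 0.0242 and 0.0413) and Ccna2 did not (adjusted p = 0.0818). From the list of G2/M and mitotic genes 15 were tested, of which 13 fell (median log2 change -0.506). The smallest p-values were those of Prc1, a spindle midzone protein (5.37 against 8.04 FPKM, adjusted p = 0.00851), Hmmr, a spindle-associated protein (9.55 against 14.4 FPKM, adjusted p = 0.00859), and Mki67, the proliferation antigen (10.7 against 17.1 FPKM, adjusted p = 0.00859). Prc1, Hmmr and Mki67 passed with the trends taken out (adjusted p = 0.0312, 0.0419 and 0.00914). The log2 changes of Ube2c, Ube2s and Ube2t were -0.09, -0.03 and -0.21, and with the trends taken out they were -0.16, 0.13 and -0.05 (adjusted p = 0.255, 0.464 and 0.826). Ube2c and Ube2t, without that removal, lay inside the ranges of both lists, -0.508 to -0.043 for the substrates and -0.623 to -0.032 for the mitotic genes. The difference between these 3 E2 genes and the mitotic genes was not tested.

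Of 13 tested genes of the Fanconi anaemia pathway 5 fell, 1 rose and 7 did not pass (median log2 change -0.059). Fancb, a core complex subunit, stood at 1.32 ± 0.256 against 2.55 ± 0.37 FPKM (adjusted p = 0.0101, or 0.0271 with the trends taken out). Usp1, which takes ubiquitin off the Ube2t substrate FANCD2, stood at 14.0 ± 0.92 against 19.5 ± 1.97 FPKM (adjusted p = 0.0112, or 0.0246 with the trends taken out). Fanci, the partner of FANCD2, stood at 2.58 ± 0.326 against 3.54 ± 0.407 FPKM (adjusted p = 0.0338, or 0.0719 with the trends taken out).

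Ube2l6 was the most variable tested E2 gene, with a coefficient of variation of 38.5% over the 8 libraries. In TABS replicates 5 to 8 it stood at 10.7, 8.81, 21.3 and 11.4 FPKM, and in HA/Mg replicates 5 to 8 at 17.5, 9.36, 10.2 and 8.10 FPKM. TABS replicate 7 and HA/Mg replicate 5 stood apart as the high libraries, 1 in each group, and the remaining 6 lay between 8.10 and 11.4 FPKM. The log2 change was 0.17 ± 0.28 (interval -0.45 to 0.79, adjusted p = 0.678), and it was -0.07 without TABS replicate 7. A rise of 1.5-fold lies within the interval from all 8 libraries, and a fall of 1.5-fold lies outside it.

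Of 5 tested genes of ISG15 conjugation 3 rose with TABS, 1 fell and 1 did not pass (median log2 change 0.22). Usp18, which removes ISG15, rose from 24.1 ± 1.20 to 31.9 ± 2.01 FPKM (adjusted p = 0.00859), and Isg15 itself from 18.7 ± 3.28 to 29.0 ± 3.08 FPKM (adjusted p = 0.0133). Uba7, the E1 that hands ISG15 to Ube2l6, rose by 0.22 in log2 units (adjusted p = 0.0408). Arih1, which encodes a ligase of the RING-between-RING type, fell from 14.7 ± 1.076 to 11.99 ± 0.991 FPKM (adjusted p = 0.0309). With those trends taken out Usp18 and Isg15 passed (adjusted p = 0.0169 and 0.036), and Uba7 and Arih1 did not (adjusted p = 0.0562 and 0.303). Among 17 further tested genes that interferon induces, 7 rose and the other 10 did not pass (median log2 change 0.18). Those that rose included Zbp1, a nucleic acid sensor (2.92 against 1.65 FPKM, adjusted p = 0.00851), the transcription factor gene Irf7 (45.5 against 31.2 FPKM, adjusted p = 0.0094) and Oas1a, a sensor of double-stranded RNA (129.5 against 104.4 FPKM, adjusted p = 0.0129). Zbp1, Irf7 and Oas1a passed with the trends taken out (adjusted p = 0.0204, 0.033 and 0.031). The difference between Ube2l6 and the genes of these lists was not tested.

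**Figure D3:**
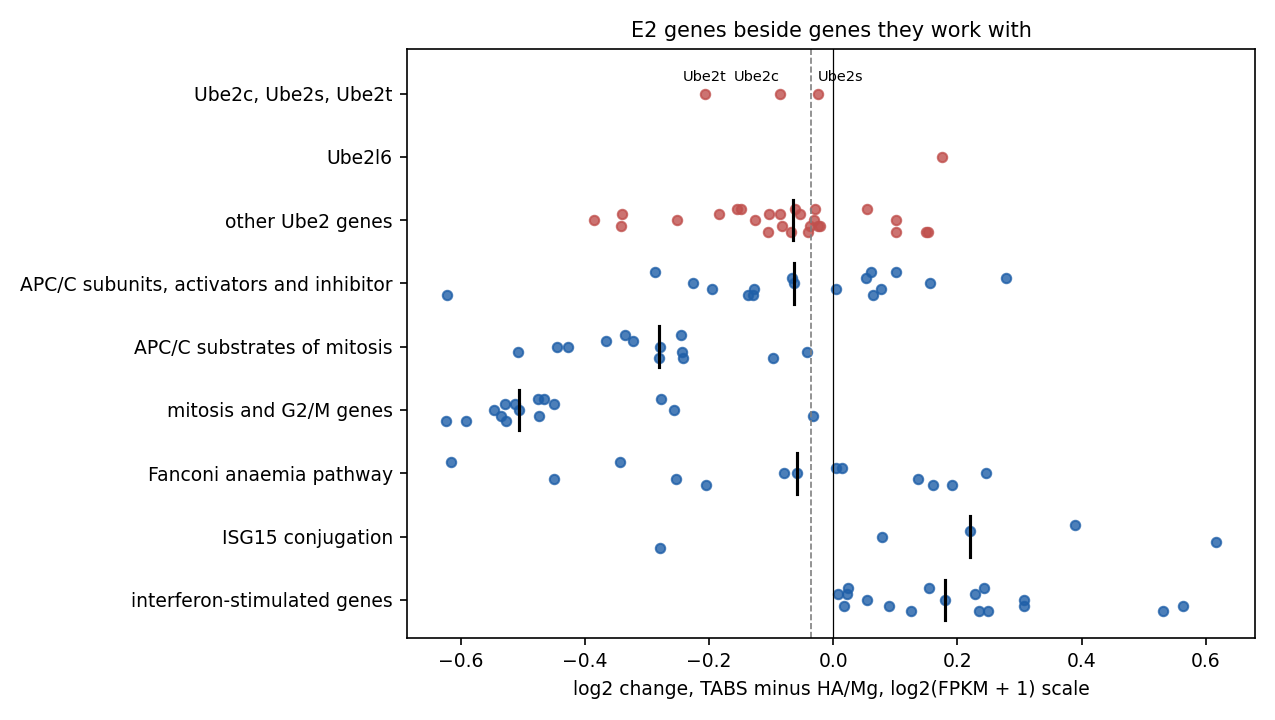
Log2 change (x axis, TABS minus HA/Mg, of log2(FPKM + 1)) of each tested gene, 1 point per gene, for the E2 genes in red and 6 lists of partner genes in blue, with list medians as black bars and the median of all genes tested as a dashed line. The APC/C substrates and mitotic genes lie to the left, at medians of -0.28 (range -0.508 to -0.043) and -0.506 (range -0.623 to -0.032). Ube2c, Ube2s and Ube2t lie nearer to 0 than these medians, with Ube2c and Ube2t inside both ranges.

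The 3 E2 genes that fell belong to different branches of the family. Ube2g1 (ENSMUSG00000020794, chromosome 11 from 72607283 to 72686481, plus strand) encodes an E2 that lengthens chains on substrates of cullin ligases. It stood at 6.19, 6.91, 5.95 and 6.86 FPKM in TABS replicates 5 to 8 and at 9.33, 7.49, 8.58 and 8.54 FPKM in HA/Mg replicates 5 to 8. The groups did not overlap, and HA/Mg replicate 6 came closest to TABS. The mean was 1.31-fold lower with TABS (6.48 ± 0.477 against 8.49 ± 0.754 FPKM, n = 4 each), and the gene fell by 0.34 ± 0.07 in log2 units (adjusted p = 0.0181). Leaving out HA/Mg replicate 5, 7 or 8 ended the call (adjusted p = 0.0608, 0.06 and 0.0506).

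Ube2e1 (ENSMUSG00000021774, chromosome 14 from 18282722 to 18331859, minus strand) encodes an E2 with an extended amino-terminal part that works with many RING ligases. It stood at 15.9, 17.1, 17.3 and 17.4 FPKM with TABS and at 20.1, 19.3, 19.2 and 19.0 FPKM with HA/Mg, without overlap. The mean was 1.14-fold lower with TABS (16.9 ± 0.687 against 19.4 ± 0.516 FPKM), and the gene fell by 0.18 ± 0.04 in log2 units (adjusted p = 0.0256). Its exons overlap those of Nkiras1 on the opposite strand, at 0.593 to 0.917 FPKM. Leaving out TABS replicate 5 or 6 ended the call (adjusted p = 0.0588 and 0.0512), as did leaving out HA/Mg replicate 5, 7 or 8 (adjusted p = 0.0845, 0.0704 and 0.0552) and median-of-ratios scaling (adjusted p = 0.117).

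Ube2v2 (ENSMUSG00000022674, chromosome 16 from 15552077 to 15595773, minus strand) encodes an E2 variant that lacks the catalytic cysteine and helps Ube2n build the chains used in DNA damage tolerance. It was the lowest of the tested E2 genes, at 1.67, 1.47, 1.55 and 2.14 FPKM with TABS and 2.17, 2.33, 2.92 and 2.27 FPKM with HA/Mg. The groups did not overlap, but TABS replicate 8 lay just below HA/Mg replicate 5. The mean was 1.42-fold lower with TABS (1.71 ± 0.301 against 2.42 ± 0.34 FPKM), and the gene fell by 0.34 ± 0.10 in log2 units (adjusted p = 0.0419). The lowest library held an estimated 121 fragments of the gene. Leaving out any library other than TABS replicate 8 and HA/Mg replicate 6 ended the call (adjusted p = 0.0783 to 0.112). So did testing without a minimum level (adjusted p = 0.116), median-of-ratios scaling (adjusted p = 0.0538) and quantile normalization (adjusted p = 0.102).

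All 3 calls ended when the dependence of each library on length and GC content of the transcript was taken out, and limma then called 0 E2 genes, against 6.37% of all genes tested (2.59% higher and 3.78% lower). At an unadjusted p under 0.05 there were then 4 of 30 E2 genes and 2798 of all 10161 genes tested. The log2 change became -0.14 ± 0.05 for Ube2g1 (adjusted p = 0.103), -0.01 ± 0.05 for Ube2e1 (adjusted p = 0.911) and -0.12 ± 0.12 for Ube2v2 (adjusted p = 0.52). Ube2v2 has the lowest GC content of the tested E2 genes, 35.1% of the longest transcript, and Ube2g1 and Ube2e1 are both at 40.9%. All 19 E2 genes below the median GC content of all genes tested (49.8%) had a negative log2 change, with a median of -0.106. Of the 11 at or above it 5 had a negative log2 change, and their median was 0.055. Across the 30 E2 genes, which share the same 8 libraries and are not replicates, the Spearman correlation of log2 change with GC content was 0.52, and across all genes tested it was 0.54. With length the correlations were -0.28 and -0.31. After the removal 12 of the 30 E2 genes had a negative log2 change, in place of 24. The trends were fitted without regard to material. A difference between TABS and HA/Mg that follows length or GC content is thus taken out too, whatever its source.

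**Figure D4:**
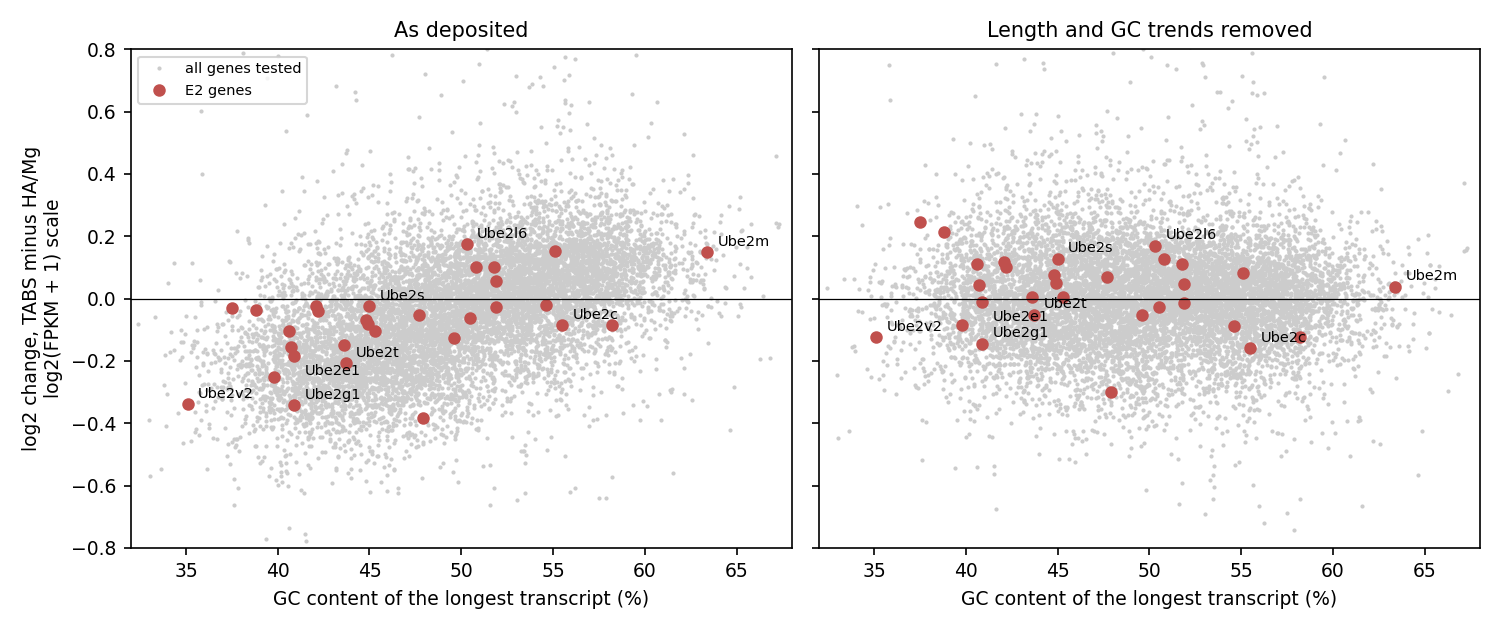
Log2 change (y axis, TABS minus HA/Mg, of log2(FPKM + 1)) against the GC content of the longest transcript (x axis, percent), for all genes tested in grey and the 30 E2 genes in red, as deposited (left) and with each library's length and GC trends removed (right); points beyond the axes are not drawn. On the left E2 genes low in GC lie below 0, with a Spearman correlation of 0.52, and on the right 12 of 30 lie below 0.

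Many E2 genes have processed pseudogenes, copies of the spliced transcript at other places in the genome, and how the authors' counting shared fragments among them is not given. A search with blastn found transcripts of other genes at 95% identity or more over at least 150 bases for 16 of the 37 E2 genes. For 12 of them these included pseudogenes, 31 in all. Of these, 13 pseudogenes of 9 E2 genes stood at 1 FPKM or more in the median library, and for 5 E2 genes a pseudogene stood higher than the gene itself. FPKM of a short copy and of a long gene can be compared only per length, and the values of these E2 genes and their copies are uncertain as far as fragments could be placed in either.

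A stretch of the copies of Ube2v2 is shown because both copies were called in the same direction as the gene. Gm6565 (chromosome 6 from 100604683 to 100605120, plus strand) and Gm6361 (chromosome 15 from 31446383 to 31446817, minus strand) match the Ube2v2 transcript over 438 and 435 bases with 0 mismatches. The stretch lies in the coding part of Ube2v2 and is given for each, from bases 231 to 302 of the Ube2v2 transcript in GENCODE M21, chr6:100604864-100604935 for Gm6565 and chr15:31446565-31446636 for Gm6361, in lower case throughout because no base differs.
Ube2v2: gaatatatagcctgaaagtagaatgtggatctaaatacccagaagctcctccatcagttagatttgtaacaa
Gm6565: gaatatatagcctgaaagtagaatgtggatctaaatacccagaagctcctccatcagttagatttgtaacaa
Gm6361: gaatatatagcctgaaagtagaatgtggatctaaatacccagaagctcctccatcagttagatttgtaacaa
In TABS replicates 5 to 8 Gm6565 stood at 6.26, 6.50, 6.86 and 6.90 FPKM and in HA/Mg replicates 5 to 8 at 10.7, 8.87, 11.0 and 10.4 FPKM, with no overlap. It fell by 0.56 ± 0.07 in log2 units (adjusted p = 0.00851), and its call held once the length and GC trends were taken out (log2 change -0.44, adjusted p = 0.0162). Gm6361 stood at 2.04, 1.90, 1.81 and 2.03 FPKM with TABS and 3.21, 2.45, 3.67 and 2.34 FPKM with HA/Mg, also without overlap. It fell by 0.40 ± 0.11 in log2 units (adjusted p = 0.0356), but its adjusted p was 0.123 after that removal. With the fragments of its pseudogene copies added to Ube2v2, the gene fell by 0.41 ± 0.09 (adjusted p = 0.0171).

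Ube2n encodes the catalytic partner of both variants, Ube2v1 and Ube2v2. It stood at 14.3, 15.0, 15.8 and 15.4 FPKM with TABS and 16.9, 16.6, 18.0 and 16.3 FPKM with HA/Mg. The groups did not overlap, yet the gene did not pass (log2 change -0.16 ± 0.05, adjusted p = 0.0538). Its copy Ube2n-ps1, identical over 459 bases, fell from 26.4 ± 0.714 to 23.5 ± 1.19 FPKM (adjusted p = 0.0437, or 0.161 once the length and GC trends were taken out). With the copies' fragments added, Ube2n passed (adjusted p = 0.0467), and it did so as well after rescaling to equal sums (adjusted p = 0.0269). Once the length and GC trends were taken out its sign turned, to a log2 change of 0.04 (adjusted p = 0.718). Ube2v1, the variant used in NF-kB signalling, was the most abundant E2 gene by FPKM, at 54.5, 57.1, 61.6 and 53.8 FPKM with TABS and 49.9, 63.3, 45.9 and 46.2 FPKM with HA/Mg. HA/Mg replicate 6 was the highest of all 8 libraries, and the gene did not pass (log2 change 0.15 ± 0.10, adjusted p = 0.284). Without that library Ube2v1 passed (log2 change 0.26, adjusted p = 0.0135), and with the trends taken out its log2 change was 0.08 (adjusted p = 0.638).

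**Figure D5:**
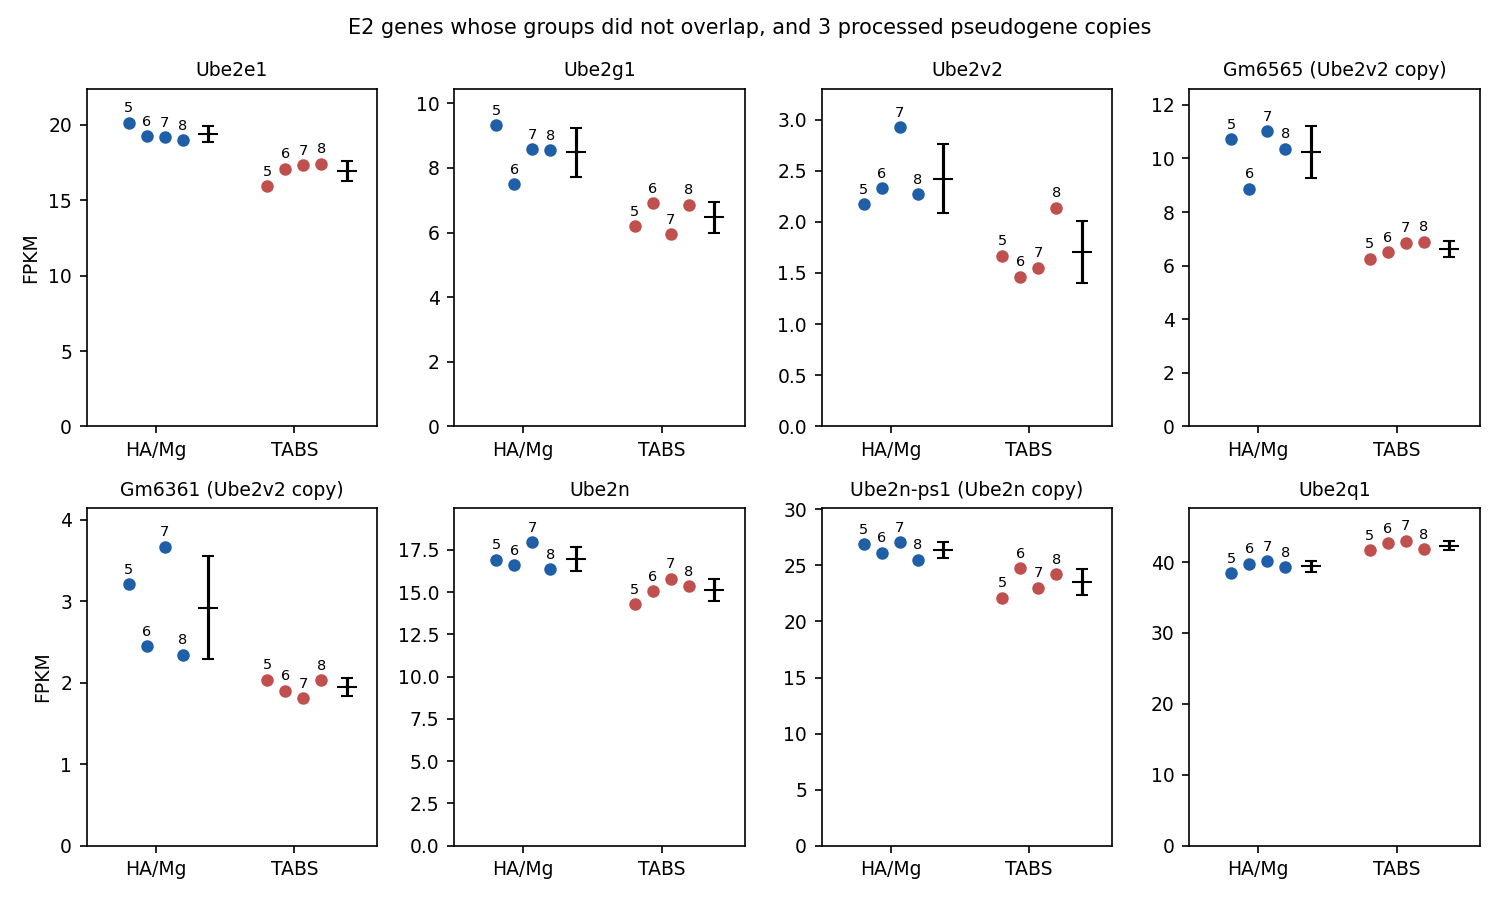
FPKM (y axis, from 0) by library, numbered by replicate, of the 5 E2 genes whose groups did not overlap (Ube2e1, Ube2g1, Ube2v2, Ube2n and Ube2q1) and of 3 processed pseudogene copies (Gm6565 and Gm6361 of Ube2v2, Ube2n-ps1 of Ube2n), with HA/Mg in blue, TABS in red and the mean ± SD in black (n = 4). The TABS libraries lie below all HA/Mg libraries in every panel except that of Ube2q1, where they lie above.

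The list for the chains built by Ube2n held ligases, targets and Cyld, whose product removes such chains. Of 13 tested genes 1 fell (7.69%, where 13.1% of all genes tested fell) and 12 did not pass (median log2 change -0.105). The gene that fell was Birc2, which encodes a ligase of TNF receptor signalling (4.58 ± 0.464 against 5.91 ± 0.536 FPKM, adjusted p = 0.0318, or 0.142 with the trends taken out). For linear chains 4 genes were tested, those of the ligase subunits and Otulin, whose product removes such chains. None passed, the smallest adjusted p being that of Otulin (24.8 against 23.6 FPKM, adjusted p = 0.471). No gene of that list had an unadjusted p under 0.05.

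Ube2l3, the E2 that works with HECT and RING-between-RING ligases, stood at 5.796, 5.15, 5.70 and 9.13 FPKM with TABS and 5.77, 8.94, 6.43 and 6.12 FPKM with HA/Mg. TABS replicate 8 and HA/Mg replicate 6 were the high libraries, the groups overlapped, and the log2 change was -0.08 ± 0.17 (interval -0.46 to 0.30, adjusted p = 0.758). Its copies Gm10145 (22.7 to 28.8 FPKM) and Gm10705 (19.3 to 22.4 FPKM) stood higher per length than the gene, and neither passed (adjusted p = 0.452 and 0.924). Gm10145 differs from the Ube2l3 transcript at 2 of 462 aligned bases and Gm10705 at 3 of 459. Exons of Ube2l3 also overlap those of Ydjc on the opposite strand, at 4.83 to 6.91 FPKM. As the use of strand is not given, fragments there cannot be told apart. Of 7 tested RING-between-RING ligases Arih1 fell (14.3% of the list, where 13.1% of all genes tested fell) and 6 did not pass (median log2 change -0.143).

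Among the remaining chain builders, the RAD6-type genes Ube2a and Ube2b, which act in DNA damage tolerance and histone ubiquitination, stood at 15.5 ± 1.84 against 15.8 ± 2.15 FPKM and 12.5 ± 0.304 against 12.9 ± 0.835 FPKM (TABS against HA/Mg, adjusted p = 0.885 and 0.61). Beside this pair 9 genes were tested, ligases and Pcna, which encodes the replication clamp. Of these 3 fell (33.3%, where 13.1% of all genes tested fell) and 6 did not pass (median log2 change -0.191). Those that fell were Rad18, the ligase for that clamp (7.43 against 9.48 FPKM, adjusted p = 0.0156), the fork-remodelling factor Hltf (3.72 against 5.58 FPKM, adjusted p = 0.019) and the large HECT ligase Huwe1 (18.1 against 21.9 FPKM, adjusted p = 0.0414). None of these 3 passed with the trends taken out (adjusted p = 0.176, 0.0562 and 0.0987).

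The broadly acting Ube2d genes did not pass. Ube2d1 stood at 2.79 ± 0.247 against 3.203 ± 0.247 FPKM (adjusted p = 0.158). Ube2d2a stood at 4.37 ± 0.388 against 4.51 ± 0.31 FPKM (adjusted p = 0.737), beside an identical copy, Gm9762, at 13.8 to 16.2 FPKM. Ube2d3 stood at 8.03 ± 0.488 against 8.23 ± 0.599 FPKM (adjusted p = 0.764). The related Ube2e3 averaged 7.55 ± 1.08 FPKM with TABS and 8.22 ± 1.33 FPKM with HA/Mg, at an adjusted p of 0.55. Ube2w, which attaches ubiquitin to the amino terminus of proteins, stood at 4.31, 5.09, 4.11 and 4.63 FPKM with TABS and 6.36, 5.04, 5.19 and 5.79 FPKM with HA/Mg. HA/Mg replicate 6 lay below TABS replicate 6, and the gene did not pass (log2 change -0.25 ± 0.08, adjusted p = 0.0624). Without HA/Mg replicate 6 Ube2w passed (adjusted p = 0.03), and with the trends taken out its log2 change was -0.08 (adjusted p = 0.421).

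None of the other E2 genes grouped here with Ube2g1 passed, a grouping that for Ube2h and Ube2k does not mean a known tie to cullin ligases. Ube2r2, a close relative of Cdc34, stood at 12.7 ± 0.462 against 13.3 ± 1.012 FPKM (adjusted p = 0.471). Ube2h stood at 15.1 ± 1.12 against 16.5 ± 0.831 FPKM (adjusted p = 0.168), and Ube2k at 12.6 ± 0.759 against 13.6 ± 0.615 FPKM (adjusted p = 0.209). Of 16 tested cullins, RING subunits, NEDD8 ligases and other cullin cofactors 6 fell (37.5%) and 10 did not pass (median log2 change -0.159). The smallest p-values were those of the cullin genes Cul2 (8.91 against 12.3 FPKM, adjusted p = 0.0132) and Cul4b (12.02 against 15.4 FPKM, adjusted p = 0.0197) and of Skp2, a substrate receptor (1.85 against 2.63 FPKM, adjusted p = 0.0222). With those trends taken out Cul2 passed (adjusted p = 0.0321) and the other 2 did not (adjusted p = 0.15 and 0.0725).

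Neither of the E2 genes for NEDD8 passed. Ube2m, the main NEDD8 E2 for cullins, stood at 45.1, 45.0, 51.9 and 49.3 FPKM with TABS and 41.2, 45.7, 42.3 and 42.9 FPKM with HA/Mg. TABS replicates 5 and 6 lay just below HA/Mg replicate 6, and the log2 change was 0.15 ± 0.06 (adjusted p = 0.0927, or 0.0469 without HA/Mg replicate 6). With the trends taken out the log2 change of Ube2m was 0.04 (adjusted p = 0.669). Ube2f, the second NEDD8 E2, stood at 7.51 ± 0.0707 against 7.83 ± 0.357 FPKM (adjusted p = 0.456). Of 11 tested SUMO ligases and proteases 1 fell, Ranbp2, a ligase of the nuclear pore (4.25 ± 0.709 against 7.01 ± 1.34 FPKM, adjusted p = 0.023, or 0.0371 with the trends taken out). That is 9.09% of the list, where 13.1% of all genes tested fell. The median log2 change over the 11 was -0.137, and 10 missed the threshold.

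The E2 genes of degradation at the endoplasmic reticulum did not pass. Ube2j1 stood at 21.5 ± 0.476 against 22.6 ± 1.45 FPKM (adjusted p = 0.365) and Ube2j2 at 18.0 ± 1.44 against 16.7 ± 0.625 FPKM (adjusted p = 0.246). Ube2g2 stood at 34.3, 34.0, 35.7 and 53.1 FPKM with TABS and 31.9, 44.1, 52.3 and 31.9 FPKM with HA/Mg (adjusted p = 0.945). The high libraries were TABS replicate 8 and HA/Mg replicates 6 and 7. Gm49325, a gene model that shares an exon stretch with Ube2g2 on the same strand, was also highest in those 3 libraries, at 1.26, 0.351 and 0.566 FPKM, and its part in the values of Ube2g2 was not tested. Of 13 tested ligases and cofactors of this pathway 1 fell, the stress-induced Herpud1 (34.2 ± 1.81 against 40.9 ± 1.87 FPKM, adjusted p = 0.0165, or 0.0228 with the length and GC trends taken out). That is 7.69% of the list, where 13.1% of all genes tested fell. The median log2 change over the 13 was -0.011, and 12 missed the threshold.

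Among the large or less studied members, Ube2q1 stood at 41.7, 42.7, 43.0 and 41.8 FPKM with TABS and 38.4, 39.8, 40.1 and 39.3 FPKM with HA/Mg. Its groups did not overlap, at 1.07-fold higher with TABS, but it did not pass (log2 change 0.10 ± 0.04, adjusted p = 0.0747). Ube2q2 stood at 9.24, 6.90, 5.76 and 9.91 FPKM with TABS and 12.4, 6.62, 12.02 and 12.1 FPKM with HA/Mg. HA/Mg replicate 6 lay with the TABS libraries, and the log2 change was -0.38 ± 0.21 (interval -0.85 to 0.08, adjusted p = 0.21). Without that library it was -0.58 and passed (adjusted p = 0.0234). Ube2o, a very large enzyme that is both E2 and E3, stood at 9.51 ± 0.43 against 10.2 ± 0.972 FPKM (adjusted p = 0.398). Ube2z, which receives ubiquitin from Uba6 alone, stood at 17.1 ± 1.13 against 17.5 ± 1.33 FPKM (adjusted p = 0.785).

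The 7 E2 genes that were not tested were low in every library. Ube2cbp, taken in by its symbol alone, stood at 0.46 to 0.845 FPKM and Ube2e2 at 0.233 to 0.326 FPKM. Ube2d2b was listed above 0 in 1 library (0.0281 FPKM in TABS replicate 8), and Ube2dnl1, Ube2dnl2, Ube2ql1 and Ube2u were listed at 0 in all 8.

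Steps before and beside the E2 enzymes were read from lists of their own. Of 10 tested E1 genes 3 fell, 1 rose and 6 did not pass (median log2 change -0.148). That is 40% called, where 18.1% of all genes tested were. Uba2, the SUMO E1 subunit, fell from 32.6 ± 1.72 to 27.3 ± 0.827 FPKM (adjusted p = 0.0139), Uba3, the NEDD8 E1 subunit, from 6.44 ± 0.744 to 4.67 ± 0.31 FPKM (adjusted p = 0.0167), and Uba6 from 5.66 ± 1.11 to 3.58 ± 0.524 FPKM (adjusted p = 0.0276). None of these 3 passed once the length and GC trends were taken out (adjusted p = 0.0529, 0.0726 and 0.0868). Of 12 tested genes of ubiquitin and its relatives 2 fell, among them Ufm1 (5.82 against 6.83 FPKM, adjusted p = 0.0388), which did not pass with the trends taken out (adjusted p = 0.965). Isg15 rose, as given above, and 9 did not pass (median log2 change 0.083). Of 8 tested E2 and E2-variant genes with other symbols none passed, the smallest adjusted p being that of Birc6 (2.94 against 3.74 FPKM, adjusted p = 0.132), and 1 had an unadjusted p under 0.05.

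The count of E2 calls was highest without HA/Mg replicate 6. Then 6 E2 genes fell (Ube2g1, Ube2e1, Ube2v2, Ube2w, Ube2q2 and Ube2n) and 2 rose (Ube2m and Ube2v1), while 32.7% of all genes tested were called. Without HA/Mg replicate 5, 7 or 8 no E2 gene was called, while 4.22%, 4.67% and 6.83% of all genes tested were, and 5, 6 and 7 E2 genes had an unadjusted p under 0.05, against 2900, 2837 and 2992 of all 10161 genes tested.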

How the data were processed

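RNA was extracted with TRIzol, RNA with an integrity number above the labels' limit was made into libraries with the NEBNext Ultra RNA kit, and these were sequenced as paired ends on a NovaSeq, per the labels' protocols. The authors' tools were fastp, STAR and DESeq2, with the GRCm38 build, per the submitters' processing notes, which give no versions or roles. The authors deposited 1 table of FPKM values. Not given in the sources used here are the annotation, the use of strand and the handling of fragments that match several places. Of 55335 identifiers 55154 matched GENCODE M21, and 6 genes with Ube2 symbols that are not protein-coding were left out.

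Values were taken as log2(FPKM + 1) for genes that reached 1 FPKM in 4 or more of the 8 libraries and tested with limma 3.58.1 in R 4.3.3 (two-sided, moderated with a mean-variance trend, Benjamini-Hochberg adjustment over all genes tested, adjusted p under 0.05). Fold changes on this scale understate the change of low genes. Depth was estimated from the steps between low values, of which 51.7% to 54.9% per library came out whole, so no count test was run. Length and GC trends were removed per library with splines of 4 degrees of freedom. Both were taken from each gene's longest annotated transcript, which need not be the one expressed. That transcript has 19300 bases for Ube2d3 and 8159 bases for Ube2d2a. Near-identical transcripts were found with blastn 2.17.0, and 30 of 37 E2 genes matched a RefSeq promoter window. Alternatives were other pseudocounts (0.1 and 0.5), filters, scalings and moderation, a replicate block, protein-coding genes alone and each library left out. The addition of pseudogene fragments was chosen after seeing the data. Scripts were tested on simulated data.

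All E2 genes were named except 1 tested gene that is not reported here by name, as is 1 gene of a partner list, with values per library for Ube2c, Ube2s, Ube2t, Ube2l6 and called members, and up to 3 called genes per partner list or the 1 with the smallest p. Uba7, the pseudogenes and the values per library of other E2 genes were chosen after their values were seen. The members and lists were chosen with earlier results of these data known.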

Additional observations from a re-analysis of the deposited data

Results flagged for a closer look

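Of 60 combinations of an E2 gene and a group, 4 had 1 library far from the other 3 of its group, where chance gives about 1 in 20. Ube2g2 stood at 53.09 FPKM in TABS replicate 8, with the others at 33.95 to 35.65 FPKM. Ube2l3 stood at 9.131 FPKM in the same library, with the others at 5.146 to 5.796 FPKM. Ube2q2 stood at 6.615 FPKM in HA/Mg replicate 6, with the others at 12.02 to 12.36 FPKM. Ube2s stood at 28.65 FPKM in TABS replicate 5, with the others at 30.96 to 31.37 FPKM.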

How the results depend on the processing

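None of Ube2g1, Ube2e1 and Ube2v2 changed sign under any of the 21 alternatives run. Of all genes tested 1842 were called as reported, 808 without a filter on low values and 647 with length and GC trends removed, and leaving out 1 library in turn gave 429 to 3320. Of the E2 genes, 3 fell as reported, 1 with median-of-ratios scaling and 0 with the trends removed, and leaving out 1 library gave 0 to 6 that fell and 0 to 2 that rose. With the replicate number as a block no gene was called, so 0 in all and 0 E2 genes (smallest adjusted p 0.0589, with 2987 genes, 6 of them E2 genes, at an unadjusted p under 0.05). Same-numbered libraries did not deviate together (correlations of 0.011, -0.275, -0.16 and 0.128), and only replicate 8 correlated best with its own number. The labels do not say whether same-numbered libraries were handled together, and these correlations cannot settle it.

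The sign of the log2 change turned under some alternatives for 15 E2 genes, none of them called as reported. With median-of-ratios scaling Ube2g2 became 0.0345, Ube2z 0.0259, Ube2a 0.029, Ube2b 0.0124, Ube2s 0.0306, Ube2d3 0.0202 and Ube2d2a 0.0092. With quantile normalization Ube2z became 0.0025, Ube2a 0.008, Ube2b 0.0117, Ube2f 0.0219, Ube2d3 0.0423 and Ube2d2a 0.0385. With the trends removed Ube2a became 0.1159, Ube2d1 0.0051, Ube2b 0.1008, Ube2e3 0.0047, Ube2j1 0.077, Ube2k 0.1115, Ube2f 0.0696, Ube2l3 0.0508, Ube2s 0.1282, Ube2n 0.0423, Ube2d3 0.2465 and Ube2d2a 0.213. Leaving out 1 library gave log2 changes of -0.1721 to 0.1145 for Ube2g2, -0.0808 to 0.0311 for Ube2s, -0.2398 to 0.0393 for Ube2l3, -0.066 to 0.0171 for Ube2z, -0.0711 to 0.39 for Ube2l6, -0.0792 to 0.0609 for Ube2a and -0.0753 to 0.0156 for Ube2d2a. The cause was not tested. The median log2 change of all genes was -0.0362 as reported, -0.0783 after rescaling to equal sums and 0.0122 with median-of-ratios scaling.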
